A study of Mus musculus with 12 samples.

Results

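The bile duct, progenitor and Notch genes are 31 named genes of mouse liver, found by gene symbol in a count table of 55401 genes. They comprise 5 duct keratins, 10 adhesion and surface proteins, 6 secreted, transport and cilium genes, 5 duct transcription factors and 5 Notch genes. Each was matched to 1 row of the table. Liver RNA was sequenced from 12 females aged 15 weeks on a C57BL/6J background, 6 of them iTgMir483 mice and 6 Control littermates. iTgMir483 mice carry a single-copy Tet-off transgene, targeted to Rosa26, which expresses Mir483 when no doxycycline is present. In the study's protocol doxycycline was given to pregnant dams and then withdrawn, so that the transgene was active after birth. CMV-Cre, which acts in all tissues, had removed the selection cassette of the line, and the animal codes of both groups name a CMV cross. Whether the Control mice carry Cre is not given in the sources used here. The study describes Rosa26 as a ubiquitous locus, and which liver cells expressed the transgene was not measured here.

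Bile ducts are lined by cholangiocytes, epithelial cells that arise with hepatocytes from a common fetal progenitor and that keep keratins 7 and 19, Epcam and Sox9 as their marks. Notch signalling directs that choice: Jag1 on portal mesenchyme binds Notch2 on the progenitor, the Notch intracellular domain joins the DNA-binding protein RBPJ, and Hes and Hey repressors are transcribed. Injured livers can form ductular cells, and injured hepatocytes can take on some of the same genes. The libraries are of whole liver, in which cholangiocytes are a small minority, and more cells of a type cannot be told apart from more RNA per cell.

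The 2 mature products of Mir483 are shown because they are the molecules over-expressed here, with the seed (bases 2 to 8) in capitals and as RefSeq gives them on GRCm38.p6, chromosome 7, minus strand.
mmu-miR-483-3p: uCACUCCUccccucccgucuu
mmu-miR-483-5p: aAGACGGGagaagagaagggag
The complement of the first seed, AGGAGTG, lies in the longest annotated 3′ untranslated region (UTR) of 3 of the 31 members (9.68%), beside 1522 of the 12098 tested genes with such a region (12.6%). That of the other seed, CCCGTCT, lies in 1 member (3.23%), beside 394 genes (3.26%). The 4 sites are shown on the mRNA strand of GRCm38 with the match in capitals, in Krt7 (bases 101427810 to 101427816 of chromosome 15), Aqp1 (55347044 to 55347050 of chromosome 6), Onecut1 (74890116 to 74890122 of chromosome 9) and Notch2 (98147907 to 98147913 of chromosome 3).
Krt7, miR-483-3p match: tgcatcggctagctAGGAGTGgtactca
Aqp1, miR-483-3p match: ctttgacatcatggAGGAGTGaaagtga
Onecut1, miR-483-3p match: aagggttgcaccatAGGAGTGtgaccaa
Notch2, miR-483-5p match: ctttcctctctgcgCCCGTCTgtggttg
Of the first 3 sites, the gene Krt7 was called higher in iTgMir483 livers, and Aqp1 and Onecut1 did not pass the test (values below).

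The Notch members raise the question of RBPJ sites, so the promoters in RefSeq (250 bases before to 50 after a start site) were searched for TGGGAA on either strand. RefSeq promoters were matched for 22 members. The motif lay in 7 of these, and in 7 of their 28 windows (25%), beside 25.6% of all 32851 promoters. Of the 7 members, Prom1, Ddr1 and Sox4 were called higher, and their sites are printed in gene orientation with the motif in capitals (TTCCCA is the motif on the opposite strand). The start and end of the motif on GRCm38.p6 are 44101847 and 44101852 of chromosome 5 for Prom1, 35702086 and 35702091 of chromosome 17 for Ddr1, and 28953794 and 28953799 of chromosome 13 for Sox4.
Prom1: ggacgcaacaggTTCCCAgagtcctggagt
Ddr1: aggtgaggttacTGGGAAaccttggcccca
Sox4: gttccaagccaaTGGGAAggacgggggagg
The longer form GTGGGAA lay in 1 of the 28 windows (3.57%), that of Krt8, beside 6.38% of all promoters. The HNF6 core ATTGAT lay in 2 windows, of Krt8 and Tspan8 (7.14%), beside 7.54% of all promoters, and the SOX core ACAAAG in 6 windows of 5 members (21.4%), beside 18.7%. Krt19, Cd24a, Cdh1, Sctr, Bicc1, Sox9, Ehf, Hes1 and Hey1 had no entry.

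Values are given as CPM, the counts scaled to a common library size with the trimmed mean of M-values, and differences as log2 fold changes of iTgMir483 over Control from edgeR's quasi-likelihood test. A gene was called changed where the adjusted p lay below 0.05 and the fold change exceeded 1.5. Library totals ranged from 12244123 to 30431286 counts. The replicate 1 libraries of both groups stood apart on the second principal component (46.38 and 40.7, against -16.74 to 2.89 in the other 10), and 12 members were called higher without them. Mir483 itself had 0 counts in each Control library and 318 to 761 counts in the iTgMir483 libraries, the direction the labels give. Hepatocyte markers summed to 128706 to 177054 CPM in Control and 64244 to 136089 CPM in iTgMir483 livers, against 52 to 82.9 and 56.8 to 117.0 CPM for the 8 bile duct markers. Of those 8, Cldn3 contributed most to the sum (45.6 ± 11.1 CPM in Control livers, SD), and its cell source was not tested. Cftr had at most 9 counts in any library.

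Of the 31 members, 27 passed the filter on low counts, 13 were called higher in iTgMir483 livers and 0 were called lower. Over all 13205 genes tested, 11.1% were called, 8.41% higher and 2.73% lower. The count of 0 lower was also 0 with DESeq2 and with limma-voom, and 0 members were lower at an unadjusted p under 0.05: Krt8, Alcam, Cdh1 and Aqp1 had fold changes below 0 on the log2 scale. The median log2 fold change of the tested members was 0.72, beside 0.01 over all genes tested. By role, 1 of 5 keratins, 6 of 9 tested surface genes, 3 of 4 tested secreted, transport and cilium genes, 2 of 4 tested transcription factors and 1 of 5 Notch genes were called higher. Every iTgMir483 library lay above every Control library for 3 members, Prom1, Muc1 and Spp1, beside 5.09% of all genes tested. A gene that is low in Control livers can pass the filter through its iTgMir483 values. With 10 counts required in every library, 19 members were tested and 6 were called higher (Prom1, Ddr1, Spp1, Pkhd1, Bicc1 and Sox4), beside 7.84% of the 11714 genes tested. The median of the tested members was then 0.37. Epcam, Cd24a and Muc1 left that test through Control replicate 6 alone (7, 7 and 3 counts), the library with the smallest total (12244123).

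**Figure D1:**
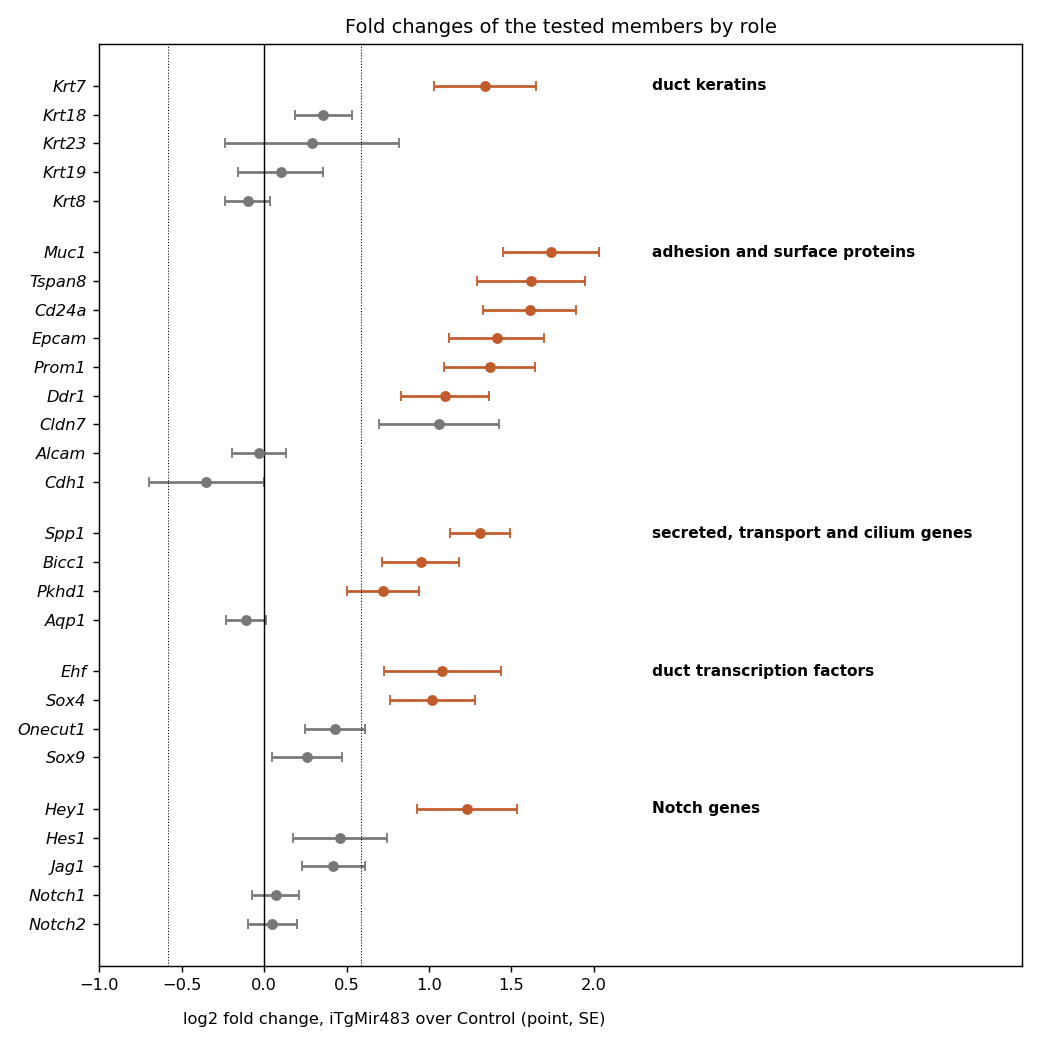
Log2 fold change of iTgMir483 over Control livers for the 27 tested members, by role (point, fitted value; bar, SE; dotted lines, a fold change of 1.5 either way; orange, called higher; grey, not called). The 13 orange points lie between 0.72 (Pkhd1) and 1.74 (Muc1), and the grey points between -0.35 (Cdh1) and 1.06 (Cldn7).

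Of the 5 keratins, Krt7 was called higher and the others were not called. Keratins are the intermediate filaments of epithelia: Krt8 and Krt18 pair with each other in hepatocytes and ducts, whereas Krt7 and Krt19 are typical of ducts. Krt7 (chromosome 15, 101411043 to 101430313, GRCm38) ranged from 0.41 to 0.906 CPM in Control livers, with a median of 0.728, and from 0.856 to 2.52 CPM in iTgMir483 livers, with a median of 1.93. Of the 6 iTgMir483 libraries, 5 lay above all Control libraries (log2 fold change 1.34 ± 0.309, SE, here and below; adjusted p = 0.00887, edgeR). These levels rest on 7 to 15 counts a library in Control and 12 to 42 in iTgMir483 livers.

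Krt19 (chromosome 11, 100140810 to 100148665), the other classical duct keratin, ranged from 0.575 to 1.69 CPM in Control livers (median 1.33) and from 0.94 to 1.63 CPM in iTgMir483 livers (median 1.41). No iTgMir483 library lay above the highest Control library. Its log2 fold change was 0.10 ± 0.258 (adjusted p = 0.825, edgeR; approximate 95% interval -0.41 to 0.60).

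Krt8 had 131.7 ± 23.5 CPM in Control and 122.9 ± 18.4 CPM in iTgMir483 livers (SD, n = 6 each, as for all CPM below; log2 fold change -0.10 ± 0.138, adjusted p = 0.657, edgeR). Krt18, its partner, had 114.0 ± 23.3 and 146.4 ± 37.3 CPM (0.36 ± 0.174, adjusted p = 0.162). The lowest Krt8 value was Control replicate 4, with 85 CPM. Krt23, a type I keratin of stressed and duct epithelium, was the most variable: Control livers ranged from 3.07 to 9.64 CPM, and iTgMir483 livers from 0.733 CPM in replicate 4 to 13.7 CPM in replicate 2. Thus 2 iTgMir483 libraries lay above and 2 below every Control library (log2 fold change 0.29 ± 0.529, adjusted p = 0.743).

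Whether keratins moved apart was tested within libraries, as the log2 ratio of their counts. The family held 24 pairs of keratins and of tested duct markers and was chosen after the values were seen. Its p-values are thus not separate support for the calls. Krt7 to Krt8 was -7.50 ± 0.27 in Control and -6.19 ± 0.67 in iTgMir483 livers (SD, n = 6 each), a difference of 1.31 (two-sided exact permutation test, p = 0.00216, adjusted p = 0.0173). That p is the smallest that 924 assignments of mice can give. Krt8 to Krt18 fell by 0.43, from 0.21 ± 0.22 to -0.22 ± 0.25, with 5 of 6 iTgMir483 libraries below all Control libraries (exact permutation p = 0.013, adjusted p = 0.0346). Krt7 to Krt19 differed by 1.08, which did not pass the test (exact permutation p = 0.0238, adjusted p = 0.0567). Without Control replicate 2, iTgMir483 replicate 2 or iTgMir483 replicate 4 it passed, with differences of 1.35, 1.21 and 1.22. Among 11 libraries the Krt7 to Krt8 call was lost in 4 of 12 fits (adjusted p = 0.0519) and the Krt8 to Krt18 call in 8 of 12 (exact permutation, adjusted p = 0.0519 to 0.0808), while the differences stayed at 1.17 or more and at -0.38 or less.

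The adhesion and surface proteins held the 4 largest fold changes of the tested members (Muc1, Tspan8, Cd24a and Epcam). Muc1 (chromosome 3, 89229057 to 89233381), a membrane mucin of the ductal lumen, ranged from 0.274 to 0.938 CPM in Control livers (median 0.722) and from 1.32 to 3.26 CPM in iTgMir483 livers (median 2.33). The groups did not overlap, and the log2 fold change was 1.74 ± 0.291 (adjusted p = 0.00163, edgeR). Epcam (chromosome 17, 87635979 to 87651129), the homophilic adhesion protein by which duct and progenitor cells are commonly sorted, ranged from 0.64 to 2.3 CPM (median 1.91) in Control and from 2.27 to 5.88 CPM (median 4.63) in iTgMir483 livers. Here 5 of 6 iTgMir483 libraries lay above all Control libraries, and replicate 4, at 2.27 CPM, was the exception (1.41 ± 0.289, adjusted p = 0.0049).

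Cd24a, a heavily glycosylated surface protein of progenitors that leukocytes also carry, ranged from 0.64 to 2.53 CPM (median 1.44) in Control and from 2.42 to 5.96 CPM (median 5.16) in iTgMir483 livers. iTgMir483 replicate 4 stood apart from its group at 2.42 CPM, the other libraries having 4.82 to 5.96 CPM (log2 fold change 1.61 ± 0.28, adjusted p = 0.00203, edgeR). Prom1, the pentaspan protein CD133 of apical protrusions, ranged from 0.914 to 1.61 CPM (median 1.39) and from 2.07 to 6.58 CPM (median 3.16), without overlap (1.37 ± 0.276, adjusted p = 0.00446). Tspan8, a tetraspanin of epithelial membranes, ranged from 0.314 to 0.863 CPM (median 0.717) and from 0.733 to 3.02 CPM (median 2.18) (1.62 ± 0.326, adjusted p = 0.0045). Ddr1, a receptor tyrosine kinase for collagen, ranged from 1.01 to 3.21 CPM (median 2.43) and from 2.71 to 7.86 CPM (median 4.76) (1.10 ± 0.267, adjusted p = 0.0115). For Tspan8 and Ddr1 the overlap with Control came from iTgMir483 replicate 4 alone.

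The claudins seal tight junctions between epithelial cells. Cldn7 had 0.457 ± 0.242 CPM in Control and 0.951 ± 0.385 CPM in iTgMir483 livers (SD, n = 6 each), with a log2 fold change of 1.06 ± 0.365 that did not pass (adjusted p = 0.0557, edgeR). It passed with DESeq2 (adjusted p = 0.0466), with limma-voom (0.0482) and without iTgMir483 replicate 1 or replicate 4 (0.0407 to 0.0468). Cldn4 did not pass the count filter: the Control libraries had 0 to 5 counts and the iTgMir483 libraries 3 to 16, or 0.107 ± 0.107 and 0.61 ± 0.265 CPM. Its 5 highest iTgMir483 libraries lay above all Control libraries (two-sided exact permutation p = 0.00433, n = 6 each, 1 of 4 members tested in this way). Fitted with no filter on low counts it had a log2 fold change of 2.33 ± 0.567 (adjusted p = 0.0123 over 26863 genes, edgeR).

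The 2 surface genes with the highest levels per length of mRNA in Control livers were not called. Alcam, an adhesion protein of the immunoglobulin family, had 38.6 ± 4.76 CPM in Control and 37.7 ± 10.8 CPM in iTgMir483 livers (log2 fold change -0.03 ± 0.165, adjusted p = 0.913, edgeR; approximate 95% interval -0.36 to 0.29). Cdh1, the E-cadherin of hepatocyte and duct junctions, had 18.8 ± 5.47 and 14.8 ± 9.12 CPM (-0.35 ± 0.351, adjusted p = 0.525). The Cdh1 values of iTgMir483 livers split widely, 3 libraries lying below every Control library and 2 above, from 5.94 CPM in replicate 4 to 26.7 CPM in replicate 3.

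**Figure D2:**
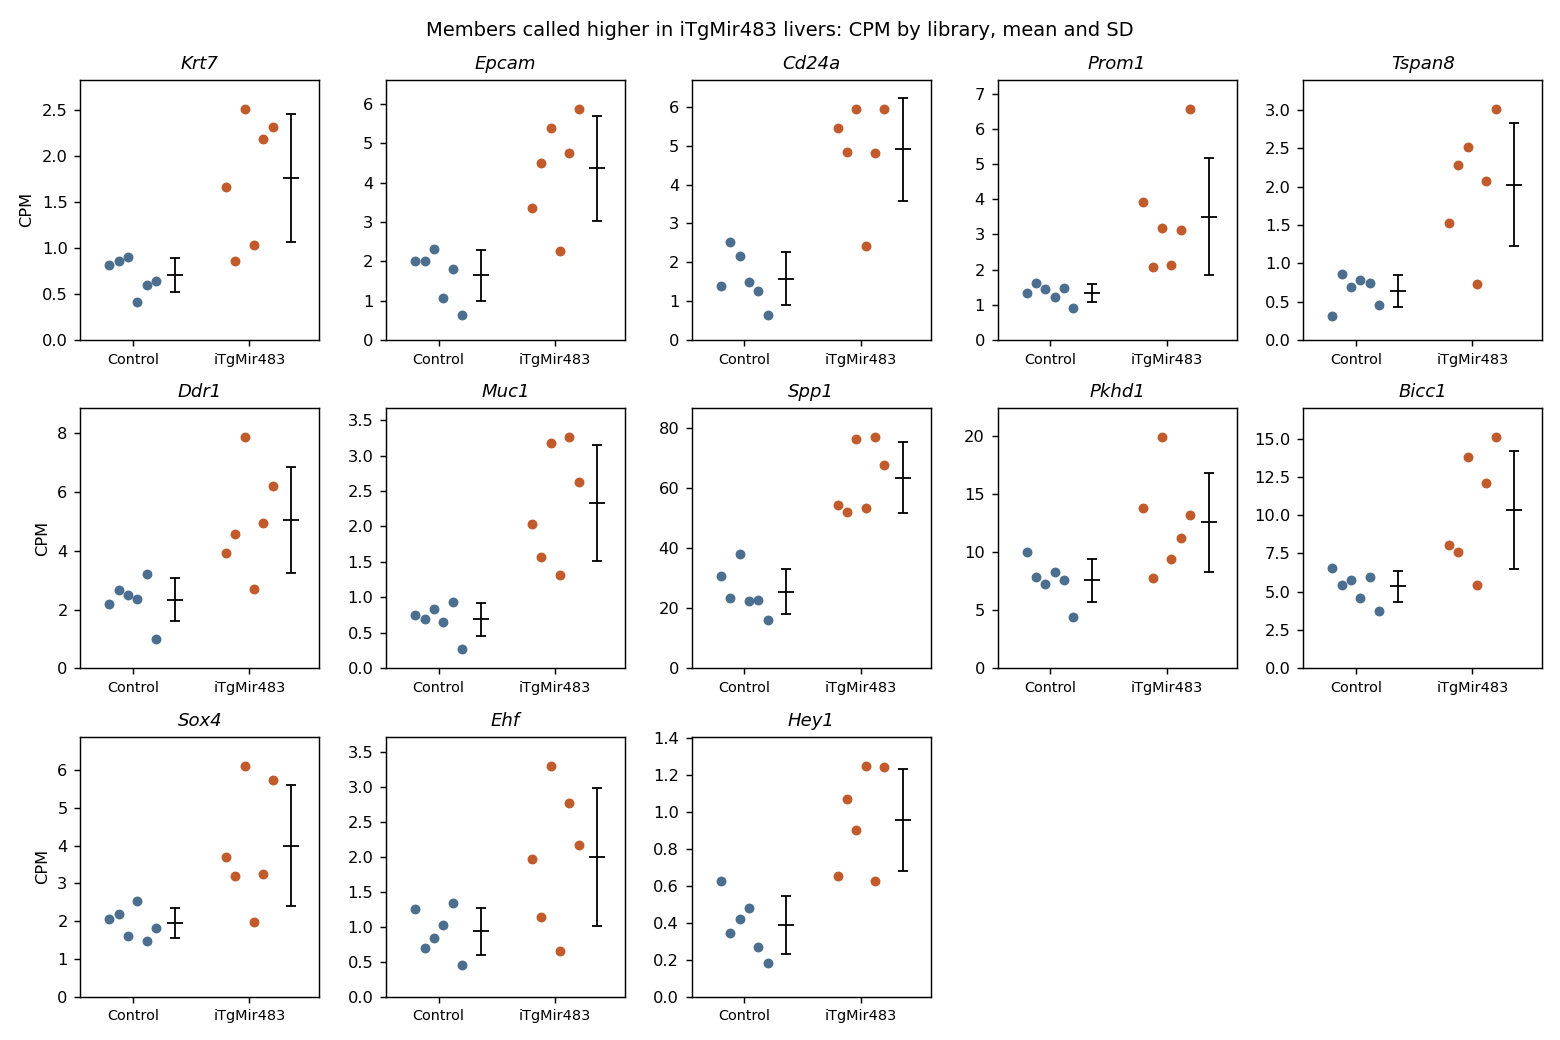
CPM of the 13 members called higher, in each of the 6 Control and 6 iTgMir483 libraries (points in replicate order; bar, mean and SD; each axis starts at 0). The groups are apart for Prom1, Muc1 and Spp1, and for the others the lowest iTgMir483 library reaches the Control range.

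Spp1 (chromosome 5, 104435118 to 104441050) had the highest level per length of mRNA of the members called higher. It encodes osteopontin, a secreted phosphoprotein made by cholangiocytes and by activated macrophages. Control livers ranged from 16.2 to 38 CPM (median 23) and iTgMir483 livers from 52 to 77.1 CPM (median 61.2), so that every iTgMir483 library lay above every Control library. The log2 fold change was 1.31 ± 0.181 (adjusted p = 0.000517, edgeR), the smallest adjusted p of the 27 tested members. The 3 members called by a test against a fold change of 1.5 were Spp1, Muc1 and Cd24a (adjusted p = 0.0139, 0.0192 and 0.0254, edgeR), beside 1.26% of all genes tested called higher.

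Bicc1 and Pkhd1 are linked to the primary cilium, and loss of either gives cystic ducts or tubules. Bicc1, an RNA-binding protein, ranged from 3.75 to 6.53 CPM (median 5.63) in Control and from 5.42 to 15.1 CPM (median 10.1) in iTgMir483 livers (log2 fold change 0.95 ± 0.232, adjusted p = 0.0121, edgeR). Pkhd1, which encodes fibrocystin, ranged from 4.39 to 10 CPM (median 7.72) and from 7.78 to 19.9 CPM (median 12.2) (0.72 ± 0.22, adjusted p = 0.0337). The Pkhd1 call was kept only without Control replicate 1 or iTgMir483 replicate 2, 4 or 5, and was lost in the 8 other fits that left out 1 library (adjusted p = 0.0513 to 0.0799).

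Of the transport genes, Aqp1 was not called, and Cftr and Sctr did not pass the count filter. Aqp1, a water channel of ducts and of endothelium, had 134.0 ± 11.1 CPM in Control and 123.9 ± 23.1 CPM in iTgMir483 livers (log2 fold change -0.11 ± 0.12, adjusted p = 0.546, edgeR; approximate 95% interval -0.35 to 0.12). Cftr, the apical chloride channel, had 0 to 9 counts in Control and 1 to 5 counts in iTgMir483 libraries (two-sided exact permutation p = 0.853, n = 6 each). Sctr, the secretin receptor that in liver marks cholangiocytes, had 0 to 6 and 3 to 9 counts (exact permutation p = 0.0411, n = 6 each), with 6 of 6 iTgMir483 libraries above the Control median. Fitted without a filter, its log2 fold change was 1.10 ± 0.565, which did not pass (adjusted p = 0.275, edgeR). At these counts only large differences in Cftr and Sctr were detectable.

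Among the duct transcription factors, Sox4 and Ehf were called and Sox9 was not. Sox9 (chromosome 11, 112782224 to 112787760), an early mark of forming ducts, ranged from 1.67 to 3.35 CPM (median 2.41) in Control and from 2.18 to 4.1 CPM (median 2.78) in iTgMir483 livers. Its log2 fold change was 0.26 ± 0.215 (adjusted p = 0.425, edgeR; approximate 95% interval -0.16 to 0.68). Sox4, which acts with Sox9 in duct formation, ranged from 1.47 to 2.53 CPM (median 1.95) and from 1.98 to 6.12 CPM (median 3.49) (1.02 ± 0.257, adjusted p = 0.0139).

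Ehf, an epithelial ETS factor, ranged from 0.457 to 1.34 CPM (median 0.931) in Control and from 0.659 to 3.3 CPM (median 2.07) in iTgMir483 livers (log2 fold change 1.08 ± 0.355, adjusted p = 0.047, edgeR). That call was at the threshold: it was kept without Control replicate 1 or iTgMir483 replicate 2 or 4, and lost in the 9 other fits that left out 1 library (adjusted p = 0.0503 to 0.119). Elf3, another epithelial ETS factor, did not pass the count filter, with 0.44 ± 0.198 and 0.666 ± 0.257 CPM (exact permutation p = 0.119, n = 6 each). Onecut1, the HNF6 of hepatocytes and ducts, had 3.88 ± 0.835 and 5.26 ± 1.15 CPM (0.43 ± 0.183, adjusted p = 0.12).

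Of the Notch genes, the transcriptional target Hey1 was called. Hey1 (chromosome 3, 8663359 to 8667256) ranged from 0.183 to 0.627 CPM in Control livers (median 0.382) and from 0.627 to 1.25 CPM in iTgMir483 livers (median 0.985), with 5 of 6 iTgMir483 libraries above all Control libraries. The log2 fold change was 1.23 ± 0.304 (adjusted p = 0.0127, edgeR), on 2 to 14 counts a Control library and 9 to 17 an iTgMir483 library. Hey1 passed the count filter through its iTgMir483 libraries, where it was higher. It was not tested with 10 counts required in every library. Hes1, the other canonical target among the members, ranged from 5.37 to 9.84 CPM (median 7.77) and from 4.08 to 18 CPM (median 9.41), with iTgMir483 replicate 1 below and replicates 5 and 6 above the Control range (0.46 ± 0.284, adjusted p = 0.28).

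The ligand Jag1 had 5.06 ± 0.781 CPM in Control and 6.8 ± 1.96 CPM in iTgMir483 livers (log2 fold change 0.42 ± 0.19, adjusted p = 0.135, edgeR), with 5 iTgMir483 libraries above all Control libraries and replicate 4 at 3.88 CPM. The receptors were close to equal: Notch1 had 31.1 ± 6.21 and 32.7 ± 5.53 CPM (0.07 ± 0.142, adjusted p = 0.757; approximate 95% interval -0.20 to 0.35). Notch2, the receptor of duct formation, had 50.4 ± 7.23 and 52.3 ± 11.6 CPM (0.05 ± 0.149, adjusted p = 0.84; approximate 95% interval -0.24 to 0.35). Differences in response between the Notch genes were not tested.

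**Figure D3:**
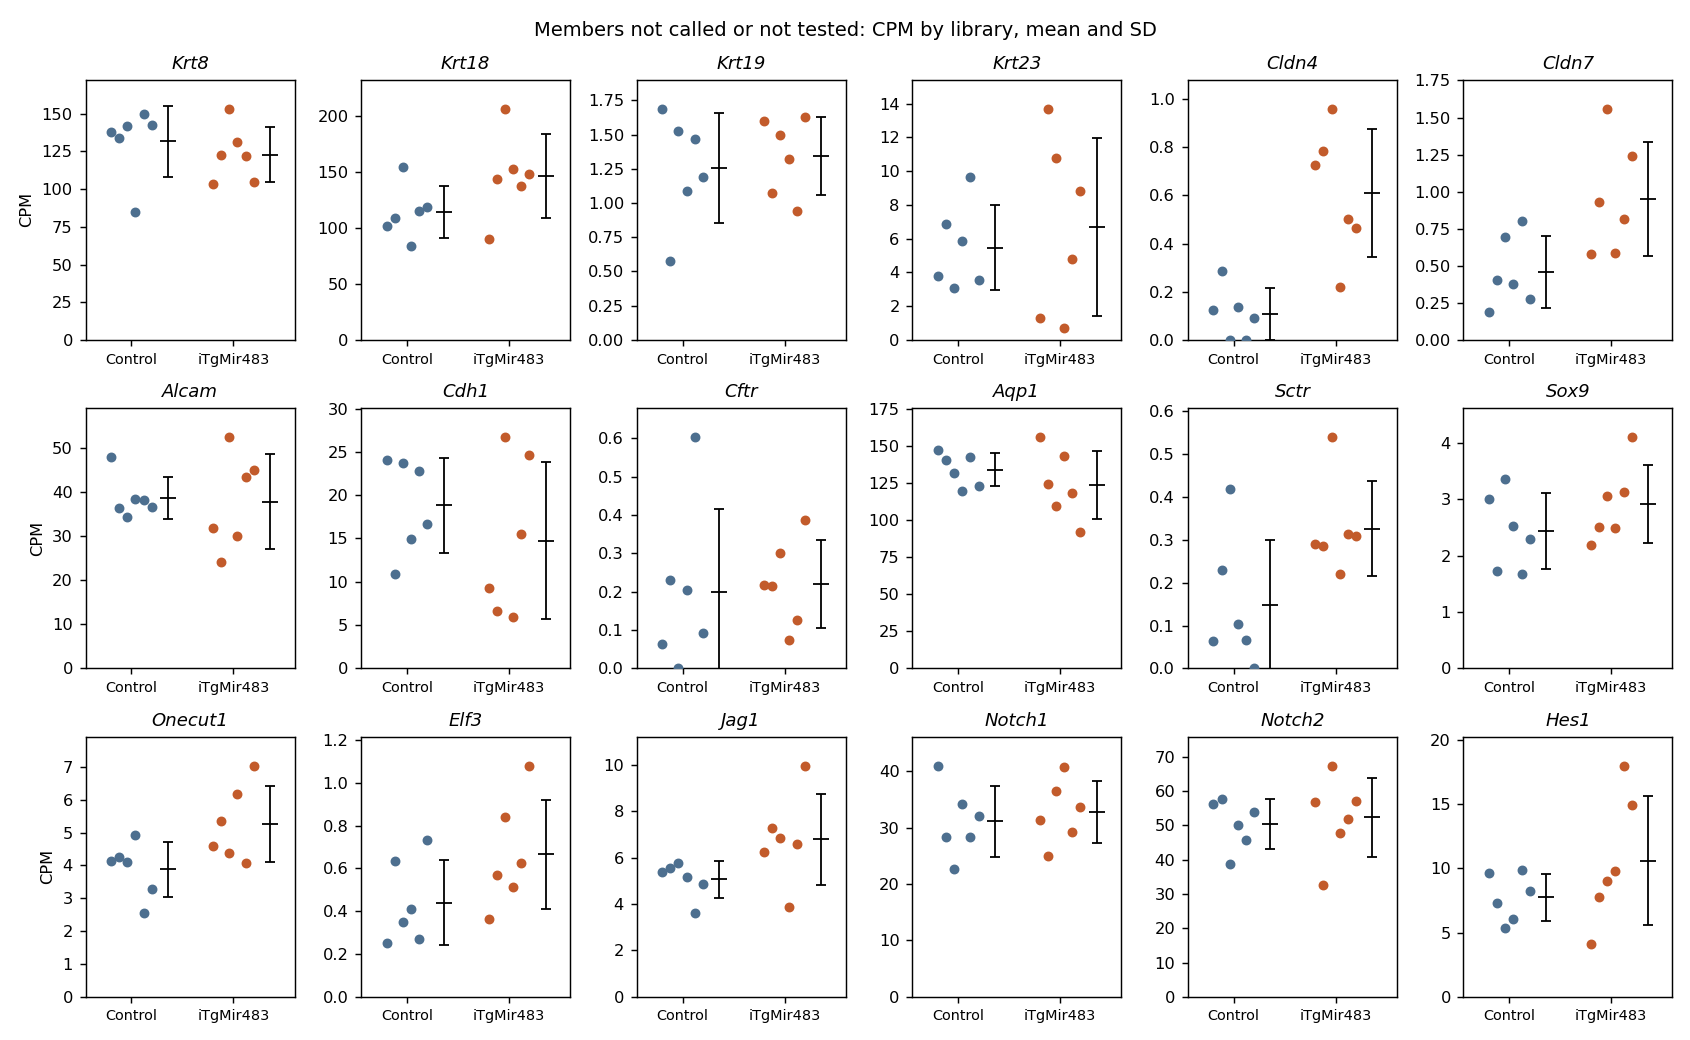
CPM of the 14 tested members not called and the 4 members not tested (Cldn4, Cftr, Sctr and Elf3), in each of the 6 Control and 6 iTgMir483 libraries (points in replicate order; bar, mean and SD; each axis starts at 0). Krt8, Krt19, Aqp1, Notch1 and Notch2 overlap between the groups, and Krt23 and Cdh1 spread most within iTgMir483 livers.

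A list of 40 other Notch pathway genes gave 5 called higher of 35 tested, beside 8.41% of all genes tested, and 0 lower (edgeR). At an unadjusted p under 0.05, 2 were lower, and DESeq2 and limma-voom called 0 lower. The median log2 fold change was 0.10. The ligand gene Dll4, which is typical of endothelium, had 4.53 ± 0.652 CPM in Control and 6.78 ± 1.46 CPM in iTgMir483 livers (0.59 ± 0.156, adjusted p = 0.0186, edgeR), and was named after its value was seen; with DESeq2 and limma-voom (0.58 with both) it did not reach a fold change of 1.5. Nrarp, a feedback inhibitor transcribed by Notch, had 1.19 ± 0.405 and 2.31 ± 0.809 CPM (0.95 ± 0.29, adjusted p = 0.0348). Dtx3, of the Deltex ubiquitin ligases, rose by 0.95 ± 0.174 (adjusted p = 0.0027), Numbl, a relative of the inhibitor Numb, by 0.94 ± 0.231 (0.0124), and Mfng, a glycosyltransferase acting on Notch receptors, by 0.65 ± 0.21 (0.0434). Rbpj, the DNA-binding factor of the pathway (-0.10 ± 0.115, adjusted p = 0.576), Adam10, the presenilins and the Maml genes were not called. Aph1a, a subunit of gamma-secretase, and Itch, a ubiquitin ligase, had lower values in iTgMir483 livers (-0.55 ± 0.102, adjusted p = 0.00292, and -0.52 ± 0.149, adjusted p = 0.026), which did not reach a fold change of 1.5; both were named after their values were seen. Dll3 and Hes5 had 0 counts in all 12 libraries.

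Of 22 other duct epithelium genes, 15 were tested and 5 were called higher, beside 8.41% of all genes tested. This list had 0 lower (edgeR, DESeq2 and limma-voom, and at an unadjusted p under 0.05) and a median log2 fold change of 0.28. St14, a membrane serine protease of epithelia, had 1.11 ± 0.393 CPM in Control and 3.27 ± 0.933 CPM in iTgMir483 livers (1.56 ± 0.254, adjusted p = 0.00139, edgeR). Dcdc2a, a cilium-associated protein of cholangiocytes, had 3.83 ± 0.792 and 6.17 ± 1.73 CPM (0.68 ± 0.202, adjusted p = 0.0299). Lgals3 (5.95 ± 0.98 and 12 ± 6.13 CPM, adjusted p = 0.0135), which macrophages also express, Slc5a1 (log2 fold change 0.93 ± 0.245, adjusted p = 0.0172) and Ezr (0.61 ± 0.186, adjusted p = 0.0348, and 0.58, not called, with limma-voom; named after its value was seen) were the others. Onecut2, a transcription factor of the biliary lineage, had a log2 fold change of 0.02 ± 0.134 (adjusted p = 0.933).

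Among 12 progenitor and plasticity genes, 7 were tested and 1 was called higher, beside 8.41% of all genes tested. That gene was Cd44 (8.61 ± 1.94 CPM in Control and 17.6 ± 9.51 CPM in iTgMir483 livers, log2 fold change 1.02 ± 0.301, adjusted p = 0.0293, edgeR), a hyaluronan receptor that leukocytes also express. With limma-voom Cd44 was not called (0.85, adjusted p = 0.0741). The fetal genes Afp (0.63 ± 0.446, adjusted p = 0.35) and Gpc3 (0.41 ± 0.277, adjusted p = 0.319) were not called, and Dlk1 had 4 counts in all libraries together. Of the Hippo and YAP list, 16 genes were tested and 1 was called higher, a count near the 8.41% of all genes tested. It was Wwtr1, which encodes the co-activator TAZ (15.2 ± 2.02 and 24.6 ± 2.03 CPM, 0.70 ± 0.1, adjusted p = 0.000688). The pathway's target genes Ccn1 (0.47 ± 0.406, adjusted p = 0.451) and Ccn2 (0.36 ± 0.398, adjusted p = 0.567) were not called.

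The duct markers were also set against one another within libraries, in the same family of 24 ratios, chosen after the values were seen. Pairs of a called and an uncalled gene restate differences already seen, so their p-values are not separate support. Epcam rose relative to Krt19 by 1.31 on the log2 scale, from 0.33 ± 0.85 in Control to 1.64 ± 0.60 in iTgMir483 livers (SD, n = 6 each; two-sided exact permutation p = 0.013, adjusted p = 0.0346). Cldn3 had 45.6 ± 11.1 CPM in Control livers, far above Epcam (1.64 ± 0.644) and Krt19 (1.26 ± 0.403), and its cell source was not tested. The ratio of Epcam to Cldn3 differed by 1.21, with 6 of 6 iTgMir483 libraries above all Control libraries (exact permutation p = 0.00216, adjusted p = 0.0173). This call was kept without each library in turn, whereas the Epcam to Krt19 call was lost in 9 of 12 such fits (exact permutation, adjusted p = 0.0584 to 0.0808). Krt19 to Cldn3 (difference -0.09) and Sox9 to Cldn3 (0.04) did not pass (exact permutation, adjusted p = 0.909 for both). Of the duct markers in these ratios, Krt7 and Epcam were called higher and Krt19, Sox9 and Cldn3 were not.

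**Figure D4:**
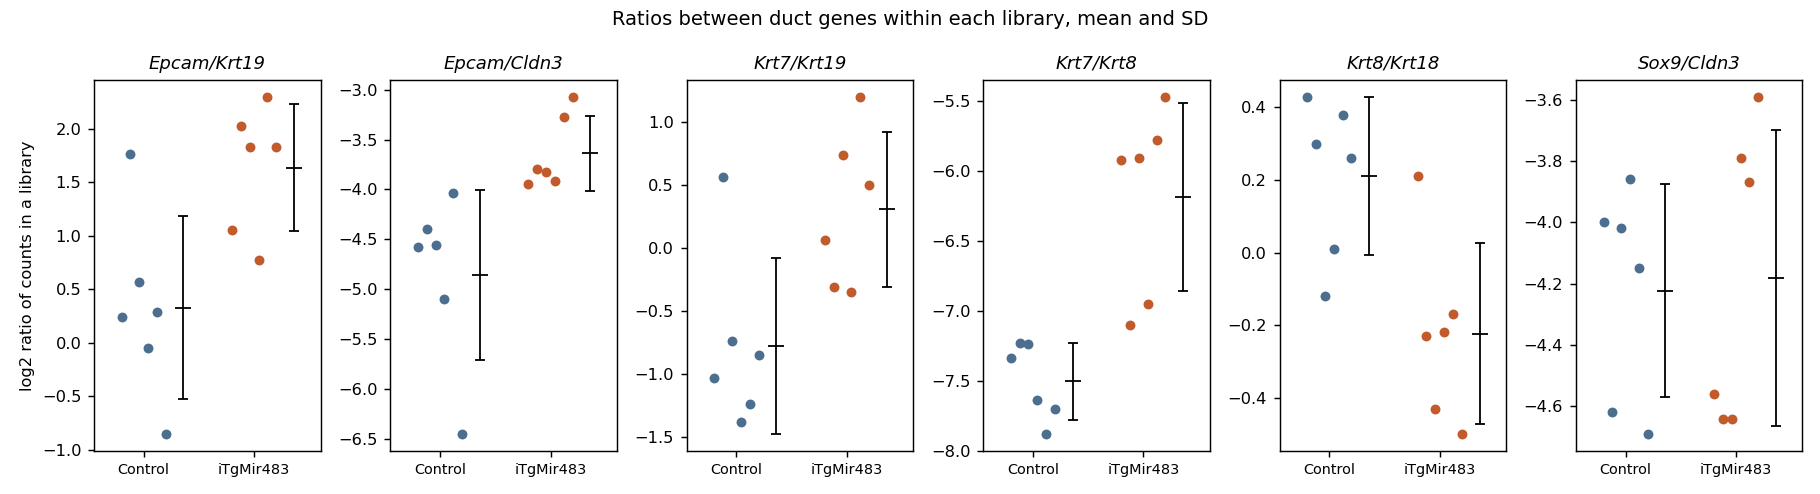
Log2 ratio of the counts of 2 listed keratins or duct markers within each library, for 6 of the 24 ratios tested (points, 6 Control and 6 iTgMir483 libraries; bar, mean and SD; the vertical axes differ and do not start at 0). Epcam to Cldn3 and Krt7 to Krt8 are apart between the groups, Krt8 to Krt18 is lower in 5 of 6 iTgMir483 libraries, and Sox9 to Cldn3 overlaps between the groups.

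Set per length of mRNA (CPM per kilobase of the longest annotated protein-coding transcript), the members spanned a wide range of levels in Control livers, from 0.0315 ± 0.0343 for Cftr to 79.3 ± 16.2 for Krt18 (SD, n = 6). Krt18, Krt8 (67.3 ± 12), Aqp1 (51 ± 4.23) and Spp1 (17 ± 5.06) held the 4 highest levels per kilobase in both groups, and of these, Spp1 was called. Krt18 and Krt8 lay within each other's SD. The other 12 members called higher had Control levels of 0.985 or less per kilobase, while Alcam, Hes1, Notch2, Cdh1, Krt23 and Notch1, from 6.4 down to 3.28, were not called. Onecut1, Jag1, Krt19, Sox9 and Cldn7, from 0.98 down to 0.342, lay in the low range too and were not called. Krt19 (0.799 ± 0.255) and Epcam (0.803 ± 0.316) had near-equal Control levels per kilobase. In iTgMir483 livers they had 0.852 ± 0.181 and 2.14 ± 0.656.

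The libraries differed in how far the members moved. Over the 13 members called higher, iTgMir483 replicate 4 had the lowest value of its group for 8, and replicates 3 and 6 had the highest for 5 each. Control replicate 6 was the lowest of its group for 10 of the 13. The summed level of the 13 genes was 31.4 CPM in Control replicate 6 and 47.6 to 64.8 CPM in the other Control livers, against 85 CPM in iTgMir483 replicate 4 and 93.4 to 151.2 CPM in the other iTgMir483 livers. Over the 14 tested members not called, iTgMir483 replicate 4 was lowest for 3 and Control replicate 6 for 0.

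**Figure D5:**
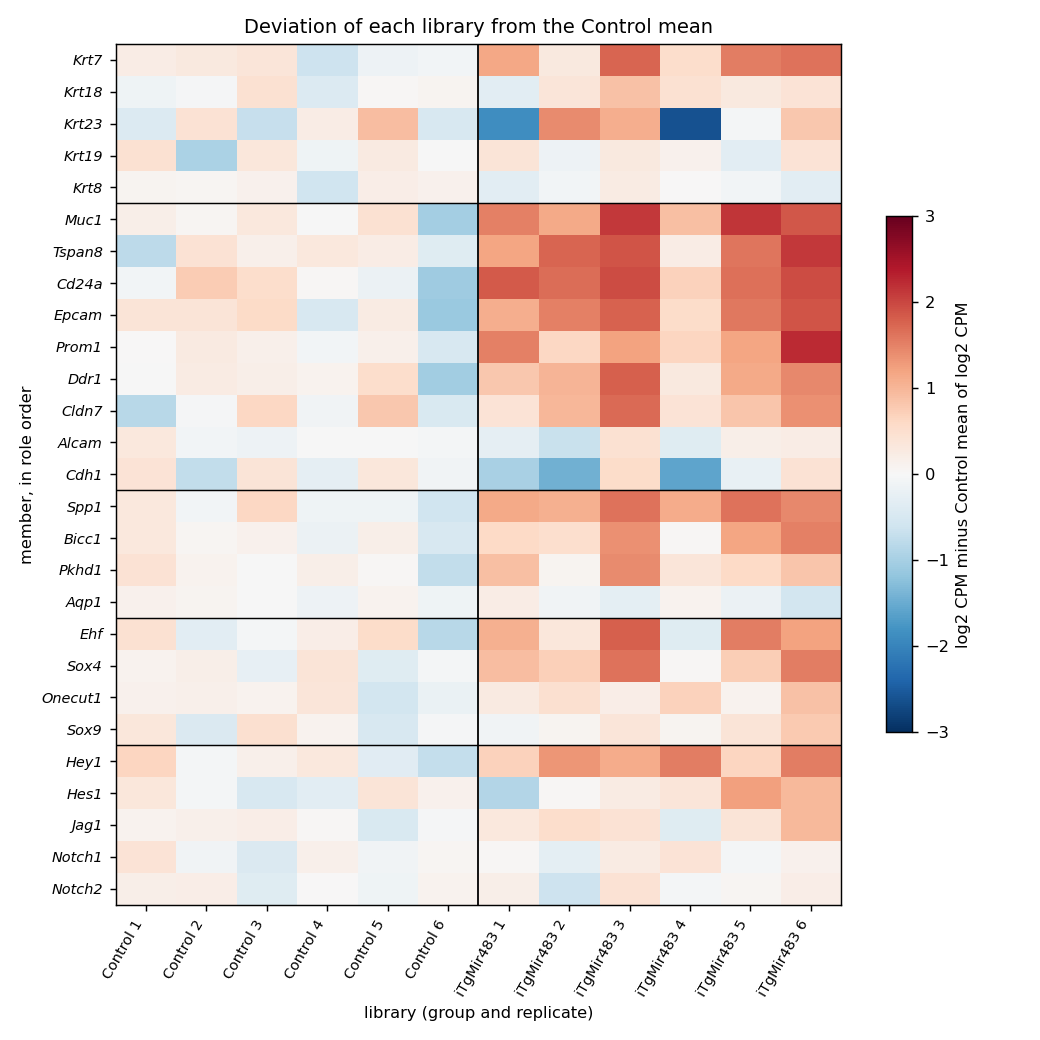
Log2 CPM (with 0.1 CPM added) of the 27 tested members in each library, minus the mean of the Control libraries (rows, members by role; columns, libraries by group and replicate; red, higher; blue, lower). The surface genes are red in all 6 iTgMir483 columns except Alcam and Cdh1, mostly palest in replicate 4, and Krt23 is dark blue in iTgMir483 replicates 1 and 4.

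Markers of other cell types moved in the same comparison. Macrophage markers summed to 308.0 to 456.5 CPM in Control and 484.0 to 1320 CPM in iTgMir483 livers, without overlap. Of 8 tested, 7 were called higher, beside 8.41% of all genes tested, with Gpnmb too low to test. iTgMir483 replicate 4, the lowest of its group for most members called higher, had the highest macrophage sum (1320 CPM). Neutrophil markers summed to 0.821 to 2.58 and 2.76 to 22.1 CPM, with S100a8 and S100a9 called higher. Their part in the values of Spp1, Cd24a, Cd44 and Lgals3 was not tested.

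Markers of other epithelia did not separate the groups. Mesothelium, which shares Krt7, Krt8, Krt18, Krt19 and Muc1 with ducts, had summed levels of 2.1 to 7.3 CPM in Control and 2.71 to 8.28 CPM in iTgMir483 livers, with 0 of 3 tested markers called (edgeR; 0 at an unadjusted p under 0.05). Of the exocrine pancreas markers, 3 of 8 (Cpa1, Cpb1 and Amy2a5) had 0 counts in all libraries, and the sum was at most 1.07 CPM. Of the intestinal markers, Cdx1 and Cdx2 had 0 counts and the sums were 87.6 to 205.7 and 108.0 to 210.8 CPM. These sums came almost wholly from Fabp2 (108.8 ± 30.5 CPM in Control livers) and Lgals4 (64.1 ± 22.6 CPM), neither of which was called. Vil1 had 0.239 ± 0.0813 and Muc2 0.245 ± 0.188 CPM in Control livers. Endothelial markers overlapped (280.7 to 330.8 and 262.0 to 378.2 CPM), with 0 of 8 called and 3 higher at an unadjusted p under 0.05 (edgeR). Stellate cell and fibroblast markers also overlapped (138.2 to 195.2 and 188.6 to 265.0 CPM, medians 174.7 and 220.4), with the same counts. Endothelial Pecam1 (0.42 ± 0.119, adjusted p = 0.0239, edgeR) and stellate Hgf (0.57 ± 0.12, adjusted p = 0.00556, edgeR) passed on the adjusted p but fell short of the fold threshold. Both were named after their values were seen. Lymphocyte markers summed to 4.21 to 7.65 and 2.84 to 4.85 CPM, with 0 of 2 tested called and 1 lower at an unadjusted p under 0.05 (edgeR); DESeq2 and limma-voom also called 0 in these 4 lists. Of the 8 hepatocyte markers, Cps1 was called lower (-1.21 ± 0.247, adjusted p = 0.00476, edgeR). At an unadjusted p under 0.05, 4 of the 8 were lower and 0 higher (edgeR). Their median log2 fold change was -0.40, and 1 of the 8 had a value above 0. Cyp2e1 passed on the adjusted p but fell short of the fold threshold (-0.43 ± 0.135, adjusted p = 0.0404, edgeR). What the lower hepatocyte markers contribute to the values of the members was not tested.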

How the data were processed

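Poly(A) RNA of 12 whole livers was sequenced, 6 Control and 6 iTgMir483, with groups taken from the sample titles and a single sequencing pool in the labels. The authors deposited unnormalised counts of reads for each gene, made by aligning stranded paired-end reads with STAR to GRCm38 with Ensembl genes. The strand column used is not given in the sources used here; 14 members overlap another annotated gene, whose total was at most 168 counts in the 12 libraries where it was in the table. Symbols and coordinates came from GENCODE M21 (GRCm38).

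Genes passing edgeR's filterByExpr (13205 of 55401) were fitted with edgeR 4.0.16 (limma 3.58.1, R 4.3.3): TMM scaling, quasi-likelihood F-test, no covariates, Benjamini-Hochberg adjustment over all genes tested. The SE was taken as the absolute log2 fold change over the root of its F statistic. The fit was tested on simulated data before use. Members that failed the filter were compared by two-sided exact permutation tests over mice, and ratios of counts used 0.5 counts as pseudocount. Each liver is a separate animal, and library totals of 12244123 to 30431286 counts limit the precision of members with few counts.

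All 31 members are named, with at most 4 called genes per direction of each other list, largest fold change first. The members and lists were chosen with earlier results of these data known. Replicate numbers were not used as pairs in the main fit. Alternatives were RLE size factors, 2 other filters, DESeq2 1.42.0, limma-voom, robust dispersion, a replicate block, other fold thresholds, leaving out each library in turn and leaving out both replicate 1 libraries. 3′ UTRs were the longest of basic protein-coding transcripts. Some genes of the marker lists and some of the ratios are not reported here.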

Additional observations from a re-analysis of the deposited data

Results flagged for a closer look

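In 8 of 84 sets of 6 libraries, the highest or lowest library lay far from the others by Dixon's ratio (gap to the nearest library over the whole range); chance gives about 4.2 such sets. Among the members, Krt8 was low in Control replicate 4 (85 CPM against 133.9 to 149.6 CPM; ratio 0.757), Cd24a was low in iTgMir483 replicate 4 (2.42 against 4.82 to 5.96 CPM; 0.68), Alcam was high in Control replicate 1 (47.9 against 34.4 to 38.4 CPM; 0.701) and Sctr was high in iTgMir483 replicate 3 (0.54 against 0.22 to 0.313 CPM; 0.708). The summed macrophage markers were high in iTgMir483 replicate 4 (1320 against 484.0 to 667.5 CPM; 0.781). The exocrine pancreas sum was high in Control replicate 5 (0.737 against 0.0575 to 0.279 CPM; 0.674) and the intestinal sum low in Control replicate 1 (87.6 against 174.8 to 205.7 CPM; 0.738). Control replicate 4 was sequenced most deeply (30431286 counts against 12244123 to 17834937; 0.693). The call of Cd24a was kept in every fit that left out 1 library, with log2 fold changes of 1.47 to 1.79. Those of Krt8, -0.20 to -0.06, and of Alcam, -0.15 to 0.07, were called in none of them.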

How the results depend on the processing

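The count of members called higher (13) was 11 to 14 without each library in turn, 12 with a replicate block or without both replicate 1 libraries, 13 or 14 with other scaling, dispersion or tools, and 0 members were lower in each of these fits. With 10 counts required in every library, 6 of 19 tested members were called higher and the median log2 fold change moved from 0.72 to 0.37. Members with fewer counts in any library leave that test, Epcam, Cd24a and Muc1 through Control replicate 6 alone. Without each library in turn the median was 0.52 to 0.83. A test against a fold change of 1.5 called 226 genes in place of 1470 and 3 members, all higher, and no fold threshold called 2457 genes; without each library the count of genes was 1190 to 1653. Values that changed sign were all uncalled: Krt23 was -0.23 with limma-voom and -0.03 with the replicate block, Alcam was 0.08 without both replicate 1 libraries, and without each library in turn Krt19 was -0.06 to 0.20, Krt23 -0.04 to 0.52, Alcam -0.15 to 0.07, Notch1 0.00 to 0.17 and Notch2 -0.03 to 0.16. Besides fits that left out libraries, Ehf was lost with no filter (adjusted p = 0.0642), limma-voom (0.0962) and the replicate block (0.0689). Same-numbered libraries correlated in their deviations from the group means at 0.0339 to 0.44, over 0.1 for 2 of 6 pairs. The replicate 1 pair was highest at 0.44, and what its 2 libraries share is not given in the labels. Replicate numbers were not used as pairs in the main fit, and the block lost no call of a member but Ehf. Of the progenitor list limma-voom called 0 genes (Cd44 was lost), and of the Hippo list DESeq2 called 2. The ratios kept their calls with a pseudocount of 1 count. Members with few counts, Cftr and Sctr most, are limited by depth.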
